A study of Ovis aries with 2 samples.

Results

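Tumour necrosis factor (TNF), the protease that releases it, its receptors and the adaptors on which those receptors act were examined in granulosa cells of Hu sheep. A set of 9 gene names was looked up in the deposited transcript table: TNF, TNFRSF1A, TNFRSF1B, TRADD, TRAF1, TRAF2, RIPK1, ADAM17 and TNFRSF11B. Of these, 8 had a line, on 9 of 22881 transcript entries and among 15490 gene names, while TNFRSF1A, the receptor that carries the death domain, is not analysed here. The names were selected on pathway membership with the FPKM, read counts and ratios of these libraries already known, so the members' values are a description with no test. Hu sheep ewes aged 3 to 4 years were fed in the luteal phase at 1.5 times maintenance (1560 g per ewe per day, supplemented group, 8 ewes) or at 0.5 times maintenance (520 g per ewe per day, restricted group, 8 ewes). The granulosa layer was scraped from every visible follicle wider than 2.5 mm. Each diet gave 1 library, and the labels do not state how many ewes gave RNA to it. Differences therefore have no replicate check and compare 2 libraries, not the diets.

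TNF is made as a membrane protein, chiefly by activated macrophages and other leukocytes, and the metalloprotease ADAM17 cuts it free. Receptor 1 (TNFRSF1A) recruits TRADD, RIPK1 and TRAF2 into a membrane complex that activates NF-kappaB, or later a cytosolic complex that can start cell death. Receptor 2 (TNFRSF1B) has no death domain and recruits TRAF2 and TRAF1. TNF is present in the mammalian ovary, where it has been studied as a modulator of steroid production and of follicular atresia in granulosa cells.

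Total counts were 9426679 reads for the supplemented library and 11299773 reads for the restricted library. Levels are given as the authors' FPKM, which counts fragments per unit of transcript length and of sequencing depth. Ratios are supplemented over restricted scaled reads with an exact Clopper-Pearson 95% interval. It covers counting error only, because 1 library per group gives no spread between animals. PCR copies are not independent molecules, so the interval may be too narrow even for counting error. The log2 ratio compares FPKM after a pseudocount of 1 was added to each library, so it understates differences between low values. A gene counted as measured when its FPKM averaged 1 or more over both libraries, and a log2 ratio of 1 or -1 was the size threshold for higher or lower. As deposited, the median log2 ratio of all 11927 measured genes was -0.08, and it became 0.11 when each library was scaled to its share of all reads. On the same change of scaling, 700 higher and 340 lower genes became 923 and 217, and centring on a list of granulosa markers gave 2914 and 86. Small log2 ratios are therefore read against the median, and their sign depends on the scaling.

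Between the 2 libraries the measured members parted by size. The ligand TNF was 31.7-fold and the receptor TNFRSF1B 3.21-fold higher in the supplemented library. The levels of the adaptors and the sheddase differed by less than 2-fold. Of the 7 measured members, 2 were higher by size, TNF and TNFRSF1B, and 0 were lower. Among all measured genes 5.87% were higher and 2.85% lower by that rule, which together is 8.72%. The counting interval of the ratio lay wholly above 1 for 3 members (TNF, TNFRSF1B and TRAF1, beside 20.4% of all measured genes) and wholly below 1 for 2 (ADAM17 and TRAF2, beside 35.7%). It lay wholly above 2 for TNF and TNFRSF1B, beside 3.4% of all measured genes, and below 0.5 for 0 members, beside 1.25%. The members' median log2 ratio was 0.03, with 4 members above 0 and 3 below. The authors' deposited table calls 1 member, TNF, up, and 0 members down, while 0.612% of all entries are called up and 0.131% down in that table.

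**Figure D1:**
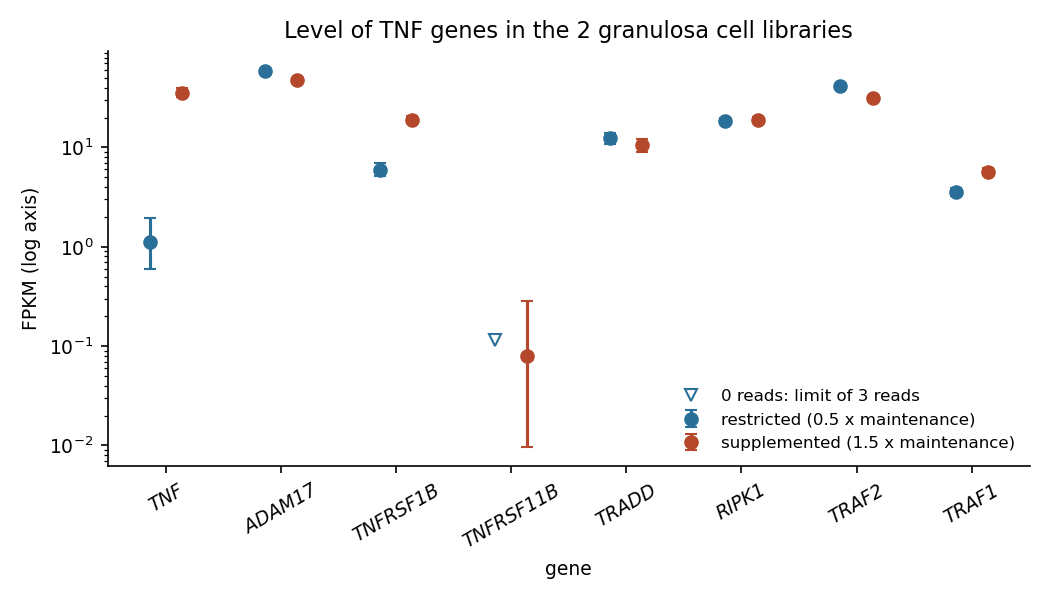
Level of each gene (FPKM, log axis) in the restricted library (blue) and the supplemented library (red), with bars for the 95% Poisson counting interval and an open triangle for a fixed limit of 3 reads where 0 reads were found. TNF and TNFRSF1B stand well apart between the libraries (35.7 against 1.13 FPKM and 19.1 against 5.96 FPKM), while ADAM17, RIPK1, TRADD and TRAF2 stand close together.

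TNF, the ligand, lies on chromosome 20 from 26855182 to 26856951 of Oar_v3.1 and has 1 entry. It stood at 35.7 FPKM in the supplemented library and 1.13 FPKM in the restricted library. These levels rest on 398 reads (95% Poisson interval 360 to 439) and 13 reads (6.92 to 22.2). The low level lies in the restricted library, and the counting intervals of the libraries do not overlap. The ratio was 31.7-fold (18.3 to 60.1) and the log2 ratio 4.11. Among 10716 named measured genes TNF had the highest log2 ratio. Its place among all measured genes by FPKM was rank 2231 in the supplemented library and rank 11262 in the restricted library. TNF thus passed from percentile 5.57 of gene levels in the restricted library to percentile 81.3 in the supplemented library. In the authors' deposited table TNF has p = 1.96e-10 and q = 1.40e-06, values that compare these 2 libraries.

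ADAM17, the sheddase that cleaves membrane TNF, was the most abundant member per length in both libraries. It stood at 47.7 FPKM (2156 reads) in the supplemented library and 58.5 FPKM (2737 reads) in the restricted one. The ratio was 0.815 (0.77 to 0.863), and the log2 ratio -0.29. It became -0.08 with libraries scaled to their share of reads, and 0.49 with values centred on the granulosa markers, so the sign of this difference is set by the scaling. The gene lies on chromosome 3 from 18727395 to 18768583. The interval of its ratio lay far below that of TNF, whose lower bound was 18.3.

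TNFRSF1B, receptor 2, which is abundant on leukocytes and endothelial cells, lies on chromosome 12 from 39630985 to 39663703. It stood at 19.1 FPKM (545 reads) in the supplemented library and 5.96 FPKM (176 reads) in the restricted one. The supplemented library was the higher by 3.21-fold (2.70 to 3.82), with a log2 ratio of 1.53 and rank 352 among all measured genes. The authors' deposited table does not call it (p = 0.00322, q = 0.167). TNFRSF11B, osteoprotegerin, a soluble decoy receptor for the TNF family members RANKL and TRAIL, was barely detected. It had 2 reads in the supplemented library (0.0795 FPKM) and 0 in the restricted library, where a count of 0 allows up to 3 reads or 0.115 FPKM. A difference in TNFRSF11B was not detectable at this depth. Its ligand partner TNFSF11, which encodes RANKL, had 0 reads in both libraries.

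None of the 4 adaptors passed the size threshold. RIPK1, the kinase that scaffolds the receptor complex, stood at 19.0 FPKM (758 reads) in the supplemented library and 18.6 FPKM (769 reads) in the restricted one. Its ratio of 1.02 (0.922 to 1.13) includes 1. TRADD, the death domain adaptor that binds receptor 1, stood at 10.5 FPKM (190 reads) against 12.3 FPKM (231 reads). Its ratio of 0.852 (0.699 to 1.04) also includes 1, so a difference in either adaptor was not detectable beyond counting error at the deposited scaling. Scaled to shares of reads, the log2 ratio of RIPK1 was 0.23 and that of TRADD -0.02. On that scaling the interval of RIPK1 lay wholly above 1 and that of TRADD still included 1. Whether the interval of RIPK1 includes 1 thus depends on the scaling.

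TRAF2, the adaptor that brings ubiquitin ligases to both receptors, has 2 entries on chromosome 3. The entry from 814166 to 948681 held 1713 and 2353 reads, and that from 525780 to 655828 held 3 and 1 reads. Summed over both, TRAF2 stood at 31.2 FPKM in the supplemented library and 41.1 FPKM in the restricted one, a ratio of 0.755 (0.709 to 0.803) and a log2 ratio of -0.39. Scaled to shares of reads the log2 ratio was -0.18, and centred on the granulosa markers it was 0.40. The abundant entry spans 134516 bases and overlaps 3 other entries, EDF1, KIAA1984 and LCN15, so its reads are uncertain to the extent that the counting shared them.

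TRAF1, a TRAF without a RING domain that is itself a target of NF-kappaB, stood at 5.72 FPKM (703 reads) in the supplemented library and 3.59 FPKM (456 reads) in the restricted one. The supplemented library was the higher by 1.60-fold (1.42 to 1.80). Its log2 ratio of 0.55 lay at percentile 88.2 of all measured genes and short of the size threshold. When centred on the granulosa markers it was 1.33 and past that threshold. TRAF1 had more reads than TNF in both libraries but a lower FPKM in the supplemented library, since the length behind its FPKM was 11.0 times that of TNF. The entry lies on chromosome 2 from 2561318 to 2584392.

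**Figure D2:**
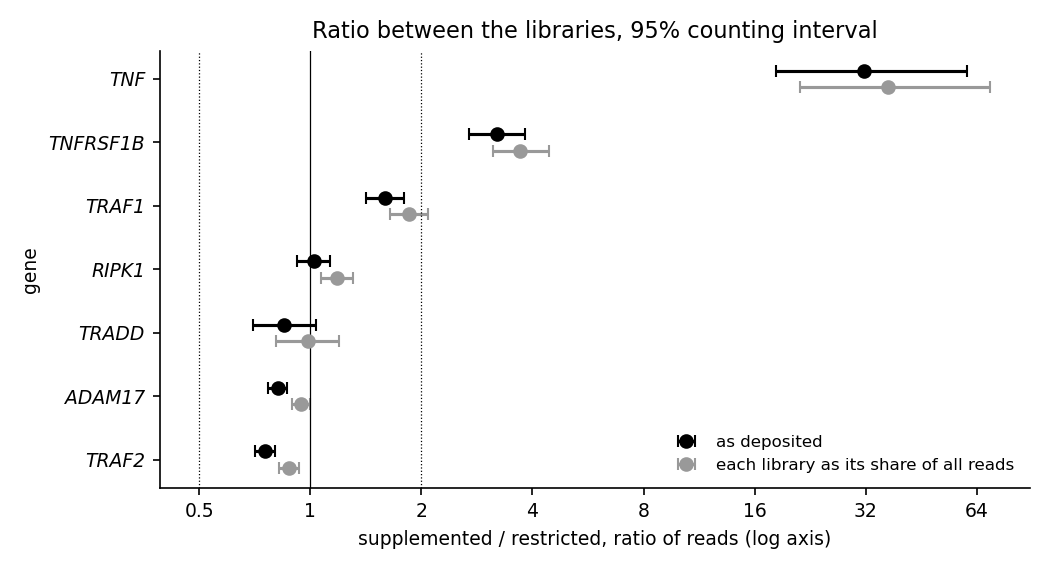
Ratio of supplemented to restricted reads for the 7 measured members (log axis), with 95% counting intervals, as deposited (black) and with each library as its share of all reads (grey). The solid line marks equal levels and the dotted lines 2-fold, and only the intervals of TNF (18.3 to 60.1) and TNFRSF1B (2.70 to 3.82) lie wholly above 2 as deposited.

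The order of the members by FPKM differed between the libraries. In the restricted library it ran ADAM17, TRAF2, RIPK1, TRADD, TNFRSF1B, TRAF1, TNF and TNFRSF11B. In the supplemented library it ran ADAM17, TNF, TRAF2, TNFRSF1B, RIPK1, TRADD, TRAF1 and TNFRSF11B. TNF stood at place 7 in the first order and place 2 in the second. The Poisson intervals of TNF (32.3 to 39.4 FPKM) and TRAF2 (29.8 to 32.7 FPKM) overlapped in part in the supplemented library. Those of TNFRSF1B (17.5 to 20.8 FPKM) and RIPK1 (17.7 to 20.4 FPKM) overlapped almost wholly. Overlap of separate intervals is no test of a difference, so the order within each pair was not tested. In the restricted library the interval of TNF (0.600 to 1.93 FPKM) lay below that of TRAF1 (3.26 to 3.93 FPKM). Set against its receptor 2, TNF stood at 1.87 times the FPKM of TNFRSF1B in the supplemented library and 0.189 times in the restricted library. RIPK1 stood at 0.995 and 3.13 times the FPKM of TNFRSF1B. Of the reads that fell on members, TNF took 6.15% and 0.193%, and ADAM17 33.3% and 40.6%.

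The neighbouring genes did not all follow the members. TNF lies in a cluster with the lymphotoxin genes LTB, 2992 bases away, and LTA, 2050 bases away, which encode related ligands. LTB had 34 reads in the supplemented library and 23 in the restricted one (3.54 against 2.31 FPKM), a ratio of 1.53 whose interval of 0.876 to 2.72 includes 1. LTA had 3 and 2 reads, too few for a ratio. LST1, a leukocyte-specific transcript 9137 bases from TNF, had 24 and 4 reads (26.7 against 4.31 FPKM). NFKBIL1, on the other side, stood at 13.9 against 14.3 FPKM. Next to TNFRSF1B, at 32858 bases, lies TNFRSF8, which encodes the receptor CD30. TNFRSF8 stood at 4.43 FPKM (253 reads) and 4.45 FPKM (263 reads), a ratio of 0.996 (0.835 to 1.19).

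Among genes that averaged 5 FPKM or more, those whose log2 ratio was nearest to that of TNF were CXCL1, IL8, S100A9, S100A12 and IL1A, over 2 libraries and 7840 candidates. Their distances from the log2 ratio of TNF ran from 0.28 for CXCL1 to 0.92 for IL1A, all on the lower side, since no named measured gene exceeded TNF. CXCL1, a neutrophil-attracting chemokine, stood at 406 against 27.5 FPKM, and IL1A, an interleukin-1 ligand, at 66.8 against 6.42 FPKM. Nearest to TNFRSF1B, a list added after its values were seen, were CD37, GMFG, CFD, SLC1A5 and C1QC, each within 0.02 of its log2 ratio. CD37 is a tetraspanin of leukocytes and C1QC a complement chain made by macrophages. With 2 libraries such likeness is no more than a like ratio. By the same rule EFR3A, PATL1, KDM3B, ARHGEF11 and TSPYL1 were nearest to TNFRSF11B, whose ratio rests on 2 reads.

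The remaining genes of the pathway were described by 8 lists that hold no member. Of 97 listed genes 82 had a line and 63 were measured. By size, 9 of the 63 were higher (14.3%) and 1 was lower (1.59%), beside 5.87% and 2.85% of all measured genes. The median log2 ratio of the 63 was 0.03, beside -0.08 for all measured genes. The higher genes were 2 ligands, 2 receptors, 3 brakes on the pathway and 2 genes named for TNF. Of these, TNFSF8, CD40 and TNFRSF18 stood at 0.26, 0.791 and 0.888 FPKM in the restricted library. They passed the filter only through their supplemented level, so the share of higher genes is a description with no test.

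Brakes on TNF signalling, 9 measured, had a median log2 ratio of 0.59 with 7 members above 0 and 2 below. NFKBIA, the NF-kappaB inhibitor that NF-kappaB itself induces, stood at 225 FPKM (3545 reads) in the supplemented library and 49.7 FPKM (813 reads) in the restricted one. The ratio was 4.51 (4.18 to 4.88), and the authors' deposited table calls it up (q = 0.000373). TNFAIP3, the ubiquitin-editing enzyme A20, stood at 12.6 FPKM (772 reads) against 3.08 FPKM (195 reads), a ratio of 4.10 (3.50 to 4.82), and is also called up in the authors' deposited table (q = 0.0238). ZFP36L1, of a family of proteins that bind AU-rich elements and promote mRNA decay, stood at 38.2 against 15.0 FPKM, a ratio of 2.54 (2.07 to 3.13). ZFP36 itself, tristetraprolin, which destabilises TNF mRNA in mice, stood at 139 against 83.5 FPKM and short of the size threshold (log2 ratio 0.73). CYLD, a deubiquitinase, was the lowest of the list at 8.03 against 8.57 FPKM (log2 ratio -0.08). TAX1BP1, a partner of A20, stood at 32.5 against 33.1 FPKM (log2 ratio -0.03).

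Other TNF superfamily ligands were low, with 5 of 14 measured and a median log2 ratio of 0.94 that became 0.38 over all with reads. TNFSF9, the ligand of 4-1BB, had 75 reads in the supplemented library and 18 in the restricted one (5.65 against 1.31 FPKM), a ratio of 4.31 (2.55 to 7.67). TNFSF8, the ligand of CD30, had 26 and 3 reads (2.33 against 0.26 FPKM), a ratio of 8.97 (2.75 to 46.3). EDA, ectodysplasin, was the lowest at 9.29 against 10.5 FPKM. Other receptors of the superfamily went in both directions, with 11 of 18 measured and a median of 0.03, which became -0.49 over genes that averaged 5 FPKM or more. CD40, a receptor of antigen-presenting cells, had 86 and 18 reads (3.91 against 0.791 FPKM), a ratio of 4.95 (2.95 to 8.74). TNFRSF18 had 32 and 10 reads (2.94 against 0.888 FPKM), a ratio of 3.31 (1.59 to 7.55). TNFRSF12A, the receptor Fn14 for the ligand TWEAK, was the 1 pathway gene lower by size, at 21.5 FPKM (90 reads) in the supplemented against 62.7 FPKM (271 reads) in the restricted library. Its ratio was 0.344 (0.268 to 0.438). Its ligand TNFSF12, TWEAK, stood at 9.86 against 4.64 FPKM, a ratio of 2.12 (1.54 to 2.96), short of the size threshold at a log2 ratio of 0.94.

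The signalling core held 0 measured genes past the size threshold, which depends on the FPKM filter and the pseudocount. Other TRAF proteins, 4 measured, had a median log2 ratio of -0.21, from TRAF6 at 0.02 to TRAF4 at -0.28. TRAF5, also of this list, fell short of the filter at 1.22 against 0.254 FPKM. It had 37 and 8 reads, a ratio of 4.79 (2.19 to 11.9). The ubiquitin ligases and kinases of the receptor complex, 14 measured, had a median of -0.01, with 6 above 0 and 8 below. TAB3, which binds ubiquitin chains for the kinase TAK1, was the highest at 14.6 against 7.29 FPKM (log2 ratio 0.91), and SHARPIN, a subunit of the linear ubiquitin ligase, the lowest at 29.7 against 42.3 FPKM (log2 ratio -0.50). The 4 measured genes of the cell death arm that are reported here had a median of 0.05, with 2 above 0 and 2 below, which became -0.19 over genes that averaged 5 FPKM or more. RIPK3, the kinase of necroptosis, stood at 5.09 against 3.41 FPKM, and FADD, the death domain adaptor of the cytosolic complex, at 12.4 against 15.4 FPKM (137 and 176 reads, log2 ratio -0.29). Scaled to shares of reads, the medians of these lists were -0.03, 0.18 and 0.25, and centred on the granulosa markers they were 0.57, 0.77 and 0.84.

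ADAM17 partners, with its relative ADAM10 and LITAF, which was named for binding the TNF promoter in human cells, had a median log2 ratio of -0.26 over 7 measured genes, 0 of them past the size threshold. RHBDF2, the iRhom that carries ADAM17 to the cell surface in myeloid cells, had 291 reads in the supplemented library and 637 in the restricted library. The ratio was 0.473 (0.41 to 0.544), at a log2 ratio of -0.97. RHBDF2 was thus lower in the library in which TNF was higher. PACS2, a trafficking protein of ADAM17, was the highest at 8.74 against 4.09 FPKM (log2 ratio 0.94). TIMP3, the inhibitor of ADAM17, stood at 233 against 310 FPKM (log2 ratio -0.41). The list's median was -0.09 with libraries scaled to their share of reads and 0.52 with granulosa centring.

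Genes that carry TNF in their names, 9 measured, had a median log2 ratio of 0.26, which became -0.16 over genes that averaged 5 FPKM or more. TNFAIP2 stood at 23.6 against 11.2 FPKM (ratio 2.11, 1.79 to 2.48). TNFAIP8L2, a negative regulator of immune cell activation known from mice, had 45 and 11 reads (4.92 against 1.16 FPKM). TNFAIP6, the hyaluronan-binding protein of the expanding cumulus matrix, stood lower in the supplemented library at 18.5 against 28.3 FPKM (ratio 0.653, 0.584 to 0.730). C1QTNF1, a secreted protein with a C1q and TNF-like fold, was the lowest at 279 against 443 FPKM (log2 ratio -0.67).

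**Figure D3:**
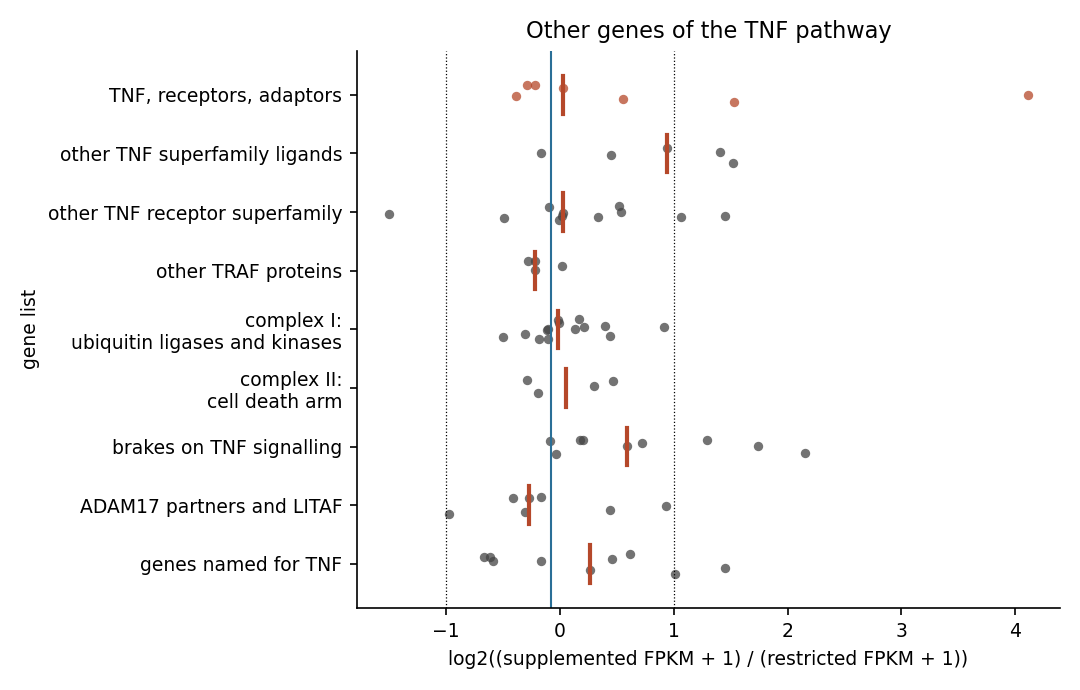
Log2 ratio of each measured gene of the TNF set (red points) and of the 8 other pathway lists (grey points), with a red bar for each list's median. The blue line is the median of all measured genes (-0.08) and the dotted lines are the size thresholds of 1 and -1. The brakes have a median of 0.59 and the complex I list one of -0.01, and TNF lies farther right than any other point.

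Markers of leukocytes moved with TNF and TNFRSF1B. In bulk RNA more cells of a type and more RNA per cell cannot be told apart. Of 15 measured macrophage and monocyte markers 14 were higher by size and 0 lower, with a median log2 ratio of 2.02 and a summed level of 551 against 115 FPKM. The most abundant were FCER1G at 161 against 39.0 FPKM, CD68 at 120 against 22.5 FPKM and LAPTM5 at 79.9 against 11.7 FPKM. All 7 pan-leukocyte markers were higher (LCP1, CORO1A and ITGB2 leading), summing to 143 against 27.6 FPKM. Of 6 measured lymphocyte markers 2 were higher, NKG7 and CD2, and the list summed to 36.8 against 13.7 FPKM. CD3E and CD3D, of the T cell receptor complex, had log2 ratios of 0.53 and 0.92, short of the size threshold. Of 3 measured neutrophil markers 2 were higher, S100A9 and S100A12 but not LCN2, summing to 127 against 35.7 FPKM. The unmeasured members were CSF3R, the G-CSF receptor, with 31 and 9 reads (ratio 3.57, 1.66 to 8.52), MPO with 2 and 3 reads, and CXCR2 with 0 reads in both libraries. The part of these cells in the levels of TNF and TNFRSF1B was not tested.

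Set beside those lists, TNF and TNFRSF1B took different places. The read ratios of the 15 macrophage and monocyte markers ran from 2.003 to 9.27, and 0 of their intervals reached the lower bound of TNF, the highest bound being 12.2. TNF was 6.48% of the summed FPKM of that list in the supplemented library and 0.980% in the restricted library, so it stood 6.61 times higher relative to the list. Against the pan-leukocyte list it stood 6.10 times higher. The ratio of TNFRSF1B lay within the range of the macrophage markers, at 3.47% and 5.18% of their sum, which is 0.669 times the list's ratio. Of the neutrophil markers, S100A9 (8.77 to 18.9) and S100A12 (10.9 to 21.3) had intervals that reached the lower bound of TNF.

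Granulosa identity was checked against 14 markers with a line, all of them measured. They summed to 11245 FPKM in the supplemented library and 25447 FPKM in the restricted one, led by SERPINE2, INHA and INHBA, with a median log2 ratio of -0.78. Of these 5 were lower by size and 0 higher. Markers of granulosa cells were thus present in both libraries. Of the 14, 12 were below 0 and 2 above, AMHR2 (log2 ratio 0.27) and WT1 (0.28). TRAF2, ADAM17 and TRADD stood 1.72, 1.85 and 1.93 times higher in the supplemented library relative to the summed granulosa markers. Markers of theca (INSL3, STAR and LHCGR leading), endothelium (PECAM1, TIE1 and EMCN), stroma and smooth muscle (ACTA2, TAGLN and DCN) and erythrocytes (HBB and AHSP) had medians of 0.87, 1.22, 0.60 and 1.13 over 6, 3, 12 and 2 measured genes. Of the 6 theca genes 5 were above 0 and 1 below. The latter, LHCGR, is in the granulosa list as well and stood at 11.2 against 23.0 FPKM (ratio 0.487, 0.434 to 0.546). Of the 12 stromal genes 8 had intervals wholly above 1, and 5 were higher by size. Those 5 were COL1A2 (ratio 4.48), COL1A1 (4.05), COL3A1 (3.60), MYH11 (3.06) and ACTA2 (2.80). The rest of the 8 were DES (1.63), TAGLN (1.52) and DCN (1.20). The other 4 stromal genes had intervals wholly below 1, namely LUM (ratio 0.676), PDGFRA (0.531), PDGFRB (0.573) and CSPG4 (0.551). The endothelial median ran from 0.41 with no filter on low values to 2.20 with a pseudocount of 0.1, and the erythrocyte median was 0.48 with a pseudocount of 5. Of the endothelial genes, EMCN had 21 and 4 reads. Among those short of the filter, KDR had a ratio of 4.21 (2.77 to 6.62). VWF (1.35, 1.003 to 1.82), CDH5 (1.36, 0.676 to 2.79), TEK (1.24, 0.856 to 1.79) and ROBO4 (1.32, 0.683 to 2.60) had lower ratios. The erythrocyte median rests on few reads, with 43 and 10 for HBB (ratio 4.45, 2.20 to 9.93) and 8 and 3 for AHSP. The interval of AHSP (0.663 to 16.2) includes 1. The part of these cell types in the members' levels was not tested.

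**Figure D4:**
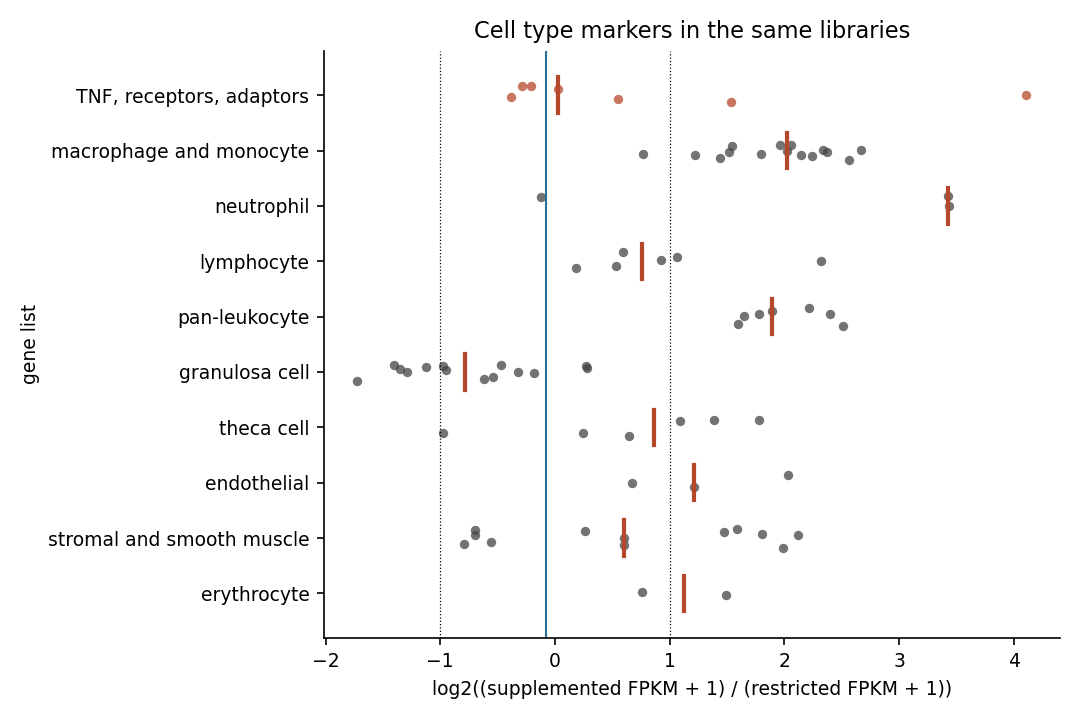
Log2 ratio of each measured gene of the TNF set (red points) and of 9 cell type marker lists (grey points), with a red bar for each list's median. The blue line is the median of all measured genes (-0.08) and the dotted lines are the size thresholds. Macrophage and pan-leukocyte markers centre on 2.02 and 1.90, granulosa markers on -0.78, and TNF lies at 4.11.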

How the data were processed

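RNA-seq libraries of granulosa cells, 1 per diet group, were deposited as 1 table of transcript entries. Per the submitters' processing notes, the tools were TopHat and Cuffdiff (no versions stated) and the genome build was Oar_v3.1. The labels' protocols give 5 µg of RNA per group, a TruSeq kit and 15 PCR cycles. The deposited read columns hold a scaled signal. A single read equals 1.02 units in the supplemented library and 0.983 units in the restricted one, and division by these steps left whole numbers (tolerance 0.02) for 98.5% of 17628 and 98.3% of 17364 entries above 0. FPKM is the authors' unit, per the file headers. The authors' log2 fold change, p-values and q-values were deposited with the table, and the p-values and q-values were copied, not recomputed.

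Columns were assigned by the feed level in the sample descriptions. FPKM and reads were summed per gene name with Python 3.11.15, numpy 2.4.6, scipy 1.17.1 and pandas 2.3.3, and 4419 unnamed entries were kept apart. Coordinates follow the deposited table and are 1-based. With 1 library per group no count model over replicates could be fitted, and the count of genes called is by size of ratio. The recovery of reads and the intervals were tried on counts simulated from the levels of these libraries with Poisson error only. Such counts hold no PCR copies, shared reads or spread between animals, so they cannot check those limits. The members, lists and alternatives were chosen with earlier results of these data known. Named genes are the members, the highest and lowest measured gene and all genes past the size threshold of each pathway list, the 3 genes of highest FPKM of each marker list (except ALAS2, which was not measured), and the 5 nearest in log2 ratio to TNF and TNFRSF11B. TNFSF11, TNFSF12, TRAF5, ZFP36, TAX1BP1, TIMP3, TNFAIP6, CSF3R, CXCR2, MPO, CD2, AMHR2, WT1, LUM, PDGFRA, PDGFRB, CSPG4 and the genes next to TNF and TNFRSF1B were added outside that rule, after their values were known. So were COL1A1, COL1A2, COL3A1, MYH11, DES, KDR, VWF, CDH5, TEK and ROBO4. Some genes of the cell death list are not reported here.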

Additional observations from a re-analysis of the deposited data

How the results depend on the processing

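No paired analysis was possible because each diet group is 1 library. TNF and TNFRSF1B stayed above a log2 ratio of 1 under all alternatives on pseudocount, filter, scaling and entry choice. The log2 ratio of TNF ran from 2.73 with a pseudocount of 5 to 4.89 when centred on the granulosa markers, and that of TNFRSF1B from 1.14 to 2.31. At a threshold of 2 on the log2 ratio 1 member, TNF, was higher. ADAM17, TRADD and TRAF2 were below 0 except when centred on the granulosa markers (0.49, 0.57 and 0.40). Over all genes, the higher and lower counts of 700 and 340 became 228 and 132 with a pseudocount of 5, 302 and 219 over genes that averaged 5 FPKM or more, 923 and 217 with libraries scaled to their share of reads, 2914 and 86 with granulosa centring, 169 and 46 at the threshold of 2, and 405 and 149 for counting intervals wholly beyond 2-fold. The level of TNF in the restricted library rests on 13 reads, which limits the precision of its ratio, and TNFRSF11B lies below the depth of both libraries. With 1 library per group, the spread between animals was not measured.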
